A study of Mus musculus with 19 samples.

Results

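The experiment described here compares the livers of control mice after 4 h and after 2 h of light delivery without food. Its members are the 10 libraries labelled wt, 5 at 4 h and 5 at 2 h, out of 19 livers in the series, and they were chosen by the sample labels alone. The wt mice were ROSA26 ChR2 fl/wt in genotype and AgRP-IRES-Cre wt/wt. They carried the Cre-dependent gene of channelrhodopsin-2, a light-gated cation channel, at the ROSA26 locus, but lacked the Cre driver that turns it on in neurons making agouti-related peptide (AgRP). The other 9 livers came from mice labelled tg, ROSA26 ChR2 fl/wt as well but AgRP-IRES-Cre tg/wt, 5 at 4 h and 4 at 2 h. In those mice the driver restricts the channel to AgRP neurons, which sit in the arcuate nucleus of the hypothalamus. An optic fibre above that nucleus delivered 473 nm light in all 4 groups, at 20 Hz with 10 ms pulses, alternating 3 s of light with 1 s of dark. Light began at zeitgeber time (ZT) 3.5 in the 4 h groups and at ZT 5.5 in the 2 h groups, and all livers were taken at ZT 7.5, where ZT 0 is lights on. The labels name the diet as random fed, and age and sex are not given in them. Because clock time at sampling was the same, the contrast of wt 4 h with wt 2 h sets a longer period of light, of handling and of daytime food removal against a shorter one, and these cannot be told apart.

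A liver that stops receiving food moves from storing fuel to releasing it. Glucagon and glucocorticoids raise genes of glucose production, falling insulin frees the FoxO factors and lowers SREBP-1c and its lipogenic targets, and fatty acids reaching the liver activate PPARalpha, the receptor that turns on fatty acid oxidation and ketone production. Mice eat mostly at night, so a few daytime hours without food fall in a phase when intake is low in any case. The hepatocyte is the main cell of the tissue, and Kupffer cells, sinusoidal endothelial cells and stellate cells make up most of the rest.

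Totals ran from 22263155 to 30941927 counts in the wt 4 h livers and from 22961887 to 32721605 in the wt 2 h livers. Of 14576 genes in the table, 14319 had values in all 10 wt libraries, and 12493 passed the filter on low counts and were fitted. Hepatocyte markers were present throughout, with albumin (Alb) between 43750 and 60727 CPM (counts scaled to a common library size) in wt 4 h livers and between 43081 and 65842 CPM in wt 2 h livers. All 15 hepatocyte markers listed were fitted, against 2 of 14 for pancreatic acinar cells and 1 of 10 for skeletal muscle. Levels of 4 Y-linked genes were found in every wt library, Eif2s3y ranging from 31.2 to 40.3 CPM. Reads of mitochondrially encoded genes took 7.83% of the counts in wt 4 h replicate 1, which is low beside the range of 10.0% to 12.7% in the wt 2 h livers. No source says that the 5 livers of a group came from separate litters or days, so p-values measure the spread between these samples.

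No gene was called between wt 4 h and wt 2 h livers. At an adjusted p under 0.05 in edgeR's quasi-likelihood test, 0 of 12493 genes passed, a background of 0%, and the smallest adjusted p over all genes was 0.821. At an unadjusted p under 0.05 there were 747 genes, or 5.98%, of which 386 (3.09%) were higher and 361 (2.89%) lower in wt 4 h livers. DESeq2 and limma-voom with sample weights each called 1 gene, Bcl6, and limma-voom without weights called 0. The 5 wt 4 h values lay wholly above the 5 wt 2 h values for 39 genes (0.312%) and wholly below for 50 genes (0.400%). The fit had 15 residual degrees of freedom, and the 95% interval of a gene's log2 change reached to either side by a median of 0.285. Changes well under that size were not detectable for a typical gene. That interval is not adjusted over genes, while calls used the adjusted p. Changes far larger could therefore go uncalled as well, as did that of Bcl6 at -1.93. A difference above 1 on the log2 scale was estimated for 63 genes. The same contrast in tg livers, fitted in the same model, called 114 genes (0.913%). The difference of the change between wt and tg was tested directly, and 0 genes passed, with 723 (5.79%) at an unadjusted p under 0.05. DESeq2 called 6 genes for that difference. A larger number of calls in tg livers is therefore not by itself a shown difference between the genotypes. All changes given below for wt livers are log2 differences of wt 4 h minus wt 2 h with their standard errors (SE) from edgeR, every one of these genes had an adjusted p of 0.821 or more, and p-values named as unadjusted come from edgeR's quasi-likelihood test.

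The gene with the smallest p was Bcl6, which encodes a transcriptional repressor (chromosome 16, 23965052 to 23988852, minus strand, GRCm38). Its levels were 33.2, 7.14, 9.58, 7.83 and 21.6 CPM in wt 4 h livers, against 62.9, 70.5, 42.8, 80.5 and 47.1 CPM in wt 2 h livers. Every wt 4 h liver was below every wt 2 h liver. The means were 15.9 ± 11.3 CPM in wt 4 h livers and 60.7 ± 15.8 CPM in wt 2 h livers (SD, n = 5 each), and the change of -1.93 (SE 0.38) leaves 26.3% of the 2 h level. The adjusted p was 0.821 in edgeR, 0.0104 in DESeq2 and 0.0144 in limma-voom with sample weights. Without wt 4 h replicate 1, the highest of its group, edgeR gave an adjusted p of 0.0301 and a change of -2.39. In tg livers the change was -0.37, and the wt minus tg difference had an unadjusted p of 0.010. In mouse liver Bcl6 is known to act against the growth hormone signal carried by STAT5, and Cish, a suppressor of cytokine signalling that STAT5 induces, averaged 19.7 ± 14.4 CPM in wt 4 h livers and 6.67 ± 4.11 CPM in wt 2 h livers (SD, n = 5 each). The Cish groups overlapped. After the group means were removed, Bcl6 and Cish had a Pearson r of -0.632 (permutation p = 0.0488) and a Spearman rho of -0.358 (permutation p = 0.315) over the 10 livers, and adjustment over 26 gene pairs gave 0.0907 and 0.456. Bcl6 had an r of -0.284 (permutation p = 0.426) with Igf1 and of -0.141 (permutation p = 0.693) with Socs2, other genes that STAT5 induces, and their rho values were -0.224 (permutation p = 0.536) and -0.139 (permutation p = 0.705). Adjusted over the 26 pairs, these p-values were 0.481 and 0.693 for r and 0.606 and 0.733 for rho, and without the 2 livers farthest in Bcl6 r was -0.598 for Cish, -0.0357 for Igf1 and 0.313 for Socs2. The permutations treat the 10 livers as exchangeable, here and for the pairs below. The pairs were chosen by hand, many of them among genes that vary strongly between these same livers. The adjusted p-values do not cover that choice.

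The promoters of Bcl6, Cish and Moxd1, a male-biased liver gene described further on, are shown because each holds the letters TTCCNGGAA, the palindrome that STAT proteins bind, in capitals. They run from 250 bases before to 50 bases after a RefSeq start site, 5′ to 3′ on the gene's strand, from the GRCm38.p6 build. The Bcl6 window lies at chr16:23981234-23981533 on the minus strand, inside the annotated gene, with 2 matches. Cish lies at chr9:107296409-107296708 and Moxd1 at chr10:24223267-24223566, both on the plus strand with 1 match each. Of 27025 genes with such a window, 364 (1.35%) hold the letters on either strand. A match is a run of letters and no evidence that a factor was bound there.
Bcl6: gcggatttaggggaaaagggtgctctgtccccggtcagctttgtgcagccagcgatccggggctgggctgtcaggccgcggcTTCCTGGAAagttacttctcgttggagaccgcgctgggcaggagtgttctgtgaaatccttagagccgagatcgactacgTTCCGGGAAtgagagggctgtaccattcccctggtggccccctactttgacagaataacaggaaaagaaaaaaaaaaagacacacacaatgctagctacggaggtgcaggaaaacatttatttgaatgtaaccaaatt
Cish: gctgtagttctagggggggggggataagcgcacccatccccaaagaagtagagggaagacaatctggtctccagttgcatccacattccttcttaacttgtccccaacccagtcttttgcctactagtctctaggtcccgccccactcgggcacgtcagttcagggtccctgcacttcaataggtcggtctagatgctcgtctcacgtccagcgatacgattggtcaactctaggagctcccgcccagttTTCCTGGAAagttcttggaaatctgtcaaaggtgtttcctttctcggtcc
Moxd1: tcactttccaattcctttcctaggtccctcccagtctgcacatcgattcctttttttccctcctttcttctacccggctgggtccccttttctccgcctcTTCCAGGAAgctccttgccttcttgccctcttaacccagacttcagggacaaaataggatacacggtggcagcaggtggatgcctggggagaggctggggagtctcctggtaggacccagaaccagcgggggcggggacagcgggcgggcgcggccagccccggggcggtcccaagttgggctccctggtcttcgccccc

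After Bcl6, the smallest p-values belonged to genes with smaller changes and little spread. Col25a1, a membrane collagen gene, was at the low end of detection, with means of 0.701 ± 0.265 CPM in wt 4 h livers and 2.58 ± 1.5 CPM in wt 2 h livers (SD, n = 5 each) and a change of -1.87 (SE 0.42). Its groups did not overlap. Rnf43, a ubiquitin ligase that removes Wnt receptors and a pericentral marker, had 25.1, 17.3, 20.2, 15.7 and 18.4 CPM in wt 4 h livers, against 37.1, 26.1, 26.6, 24.9 and 29.5 CPM in wt 2 h livers. Its change was -0.58 (SE 0.14), with 1 liver of each group in the other's range, and the median change of 14 pericentral markers was 0.02. Cpsf6, of the 3′ cleavage machinery, had a change of -0.40 (SE 0.10) without overlap, and the splicing coactivator Srrm2 one of -0.47 (SE 0.12). Other genes of small p were higher in the mean of wt 4 h livers. Kyat3, a kynurenine aminotransferase, averaged 159 ± 14.9 CPM in wt 4 h livers and 123 ± 5.71 CPM in wt 2 h livers, and Magt1, a subunit of the oligosaccharyltransferase and a magnesium transporter, averaged 57.5 ± 3.01 CPM in wt 4 h livers and 47.4 ± 2.89 CPM in wt 2 h livers (SD, n = 5 each). Neither overlapped. Morf4l2, a chromatin protein, was also higher without overlap, by 0.39 (SE 0.10).

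**Figure D1:**
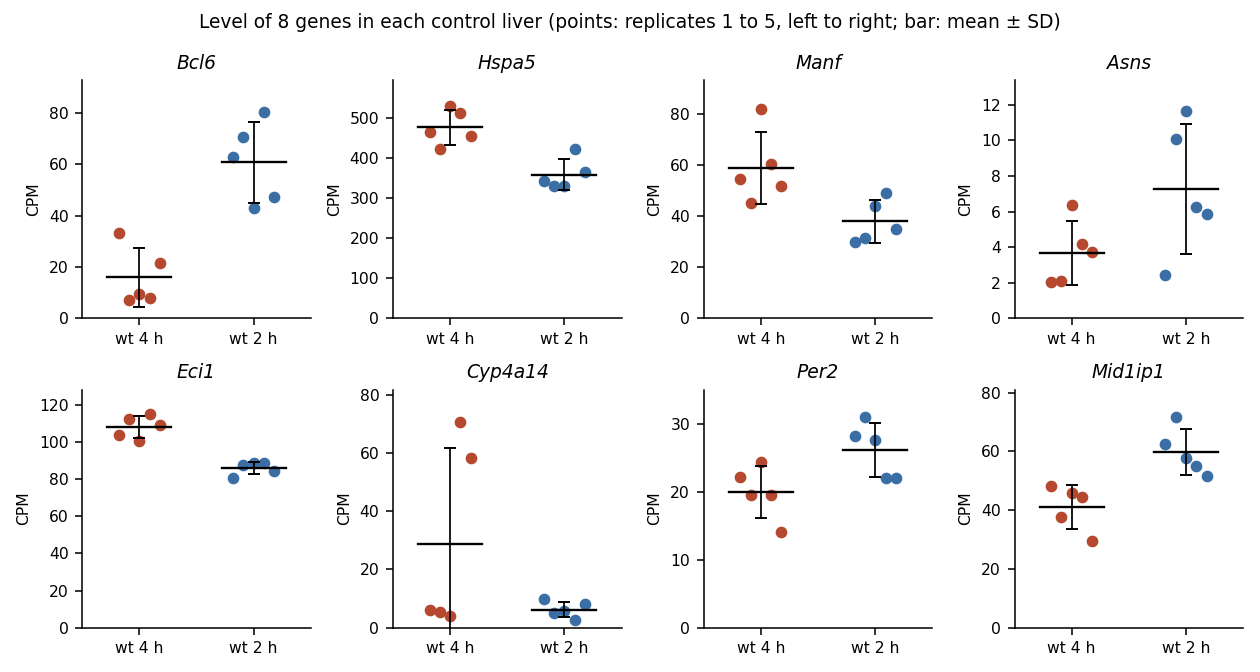
Levels in CPM (vertical axes, each from 0) of 8 genes in the 5 wt 4 h livers (left, red) and the 5 wt 2 h livers (right, blue), with the mean and SD as black bars. Bcl6, Eci1 and Mid1ip1 do not overlap between groups, while the high wt 4 h mean of Cyp4a14 comes from replicates 4 and 5.

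Genes of the unfolded protein response were mostly higher in wt 4 h livers. This is the response that raises chaperones when misfolded proteins gather in the endoplasmic reticulum. Of 27 members fitted, 22 were higher in wt 4 h livers, and 10 higher and 1 lower had an unadjusted p under 0.05, against 3.09% and 2.89% of all genes. The median change was 0.24, against 0.00 over all genes. Hspa5, the main chaperone of the compartment (chromosome 2, 34771970 to 34777547), had 464, 422, 530, 512 and 455 CPM in wt 4 h livers, against 343, 331, 331, 422 and 365 CPM in wt 2 h livers. The groups met only at their ends, and the change was 0.41 (SE 0.11). Hsp90b1, a second chaperone, averaged 603 ± 29.7 CPM in wt 4 h livers and 515 ± 18.1 CPM in wt 2 h livers (SD, n = 5 each) without overlap. The secreted factor Manf had 54.4, 45.0, 82.2, 60.5 and 52.0 CPM in wt 4 h livers, against 30.1, 31.3, 44.0, 49.3 and 35 CPM in wt 2 h livers, with 1 wt 2 h liver inside the wt 4 h range. The disulfide isomerases Pdia3 and Pdia6 were higher by 0.29 (SE 0.08) and 0.27 (SE 0.10), and Sdf2l1, a chaperone partner, by 0.53 (SE 0.23). Atf5, a transcription factor of the integrated stress response, averaged 211 ± 29.0 CPM in wt 4 h livers and 165 ± 14.3 CPM in wt 2 h livers (SD, n = 5 each), again without overlap. Asns, the asparagine synthetase that the amino acid response induces, differed in direction. It had 2.06, 2.06, 6.37, 4.15 and 3.73 CPM in wt 4 h livers, against 2.45, 10.1, 11.7, 6.25 and 5.87 CPM in wt 2 h livers, a change of -0.98 (SE 0.43) with overlapping groups.

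In tg livers the median change of these 27 genes was 0.07. For 6 members the wt minus tg difference had an unadjusted p under 0.05, against 5.79% of all genes, and none passed adjustment over all genes. The transcription factor Xbp1, whose spliced form drives the chaperones, was among them, with a change of 0.28 (SE 0.19) in wt and of -0.32 in tg livers, and so was Asns, with a change of 0.76 in tg livers. The cytosolic heat shock genes, which answer misfolding outside that compartment, had a median change of 0.13 in wt livers, with 3 of 18 higher at an unadjusted p under 0.05, against 3.09% of all genes. Hsp90aa1 averaged 89.2 ± 14.0 CPM in wt 4 h livers and 65.3 ± 9.95 CPM in wt 2 h livers (SD, n = 5 each), and Hsph1 was higher by 0.38 (SE 0.14).

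The promoters of 3 of these chaperone genes are shown because they hold the endoplasmic reticulum stress response element, CCAAT and CCACG with 9 bases between them on either strand, given in capitals with the bases between. It was found in 7 of the 25 fitted list members with a promoter window, or 28%, and in 37 of 27025 genes (0.137%). The members were Calr, Canx, Creld2, Dnajc3, Hsp90b1, Hspa5 and Pdia6. The list was drawn up from known targets of this pathway, so the share describes the list and not the change. The windows are RefSeq's on GRCm38.p6, at chr2:34771840-34772139 on the plus strand for Hspa5, at chr10:86705395-86705694 on the minus strand for Hsp90b1, which holds 2 matches, and at chr12:17266339-17266638 on the plus strand for Pdia6.
Hspa5: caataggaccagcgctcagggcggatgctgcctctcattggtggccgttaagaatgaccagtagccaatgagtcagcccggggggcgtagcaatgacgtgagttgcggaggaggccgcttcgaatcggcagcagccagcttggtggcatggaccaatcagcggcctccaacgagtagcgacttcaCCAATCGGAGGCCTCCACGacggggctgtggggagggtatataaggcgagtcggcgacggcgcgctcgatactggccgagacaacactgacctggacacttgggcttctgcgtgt
Hsp90b1: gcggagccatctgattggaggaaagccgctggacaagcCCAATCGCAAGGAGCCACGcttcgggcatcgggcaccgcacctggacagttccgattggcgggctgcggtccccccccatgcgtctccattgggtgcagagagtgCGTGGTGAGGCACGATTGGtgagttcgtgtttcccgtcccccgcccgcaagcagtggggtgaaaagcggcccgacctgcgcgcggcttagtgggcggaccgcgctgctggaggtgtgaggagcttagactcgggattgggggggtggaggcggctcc
Pdia6: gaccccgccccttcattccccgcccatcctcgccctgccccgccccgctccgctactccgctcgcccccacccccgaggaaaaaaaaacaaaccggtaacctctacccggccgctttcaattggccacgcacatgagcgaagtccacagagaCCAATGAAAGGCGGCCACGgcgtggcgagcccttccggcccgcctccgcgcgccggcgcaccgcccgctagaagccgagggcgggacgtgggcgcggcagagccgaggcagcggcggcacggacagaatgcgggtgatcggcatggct

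Genes of PPARalpha, fatty acid oxidation and ketogenesis leaned the same way. Of 42 fitted, 35 were higher in wt 4 h livers, and 10 higher and 0 lower had an unadjusted p under 0.05, against 3.09% and 2.89% of all genes. The median change was 0.19 in wt and 0.16 in tg livers. Averaged over the list, the log2 deviation from each gene's mean over the 10 livers was 0.093, -0.079, -0.176, 0.468 and 0.311 in wt 4 h livers. In wt 2 h livers it was -0.006, 0.0004, -0.456, -0.147 and -0.008, and the groups overlapped. Such genes can move together from library to library, so 35 of 42 is not a count of independent observations. Eci1, an isomerase that prepares unsaturated fatty acids for mitochondrial oxidation, had 104, 112, 101, 115 and 109 CPM in wt 4 h livers, against 80.8, 87.7, 88.7, 88.7 and 84.4 CPM in wt 2 h livers. All wt 4 h values lay above all wt 2 h values, for a change of 0.33 (SE 0.09). Acadm, the medium-chain acyl-CoA dehydrogenase, and Cpt2, the inner carnitine palmitoyltransferase, were higher by 0.21 (SE 0.09) and 0.23 (SE 0.10) with overlapping groups. The intestinal-type fatty acid binding protein gene Fabp2 was higher by 0.35 (SE 0.14).

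The largest estimates of that list came from the Cyp4a genes, fatty acid omega-hydroxylases and classical PPARalpha targets, and they rested on a few livers. Cyp4a14 (chromosome 4, 115486200 to 115496142, minus strand) had 6.20, 5.37, 3.94, 70.7 and 58.4 CPM in wt 4 h livers, against 9.72, 4.85, 5.75, 2.71 and 8.02 CPM in wt 2 h livers. Replicates 4 and 5 at 4 h stood above the other 8 livers, which lay within 1 range. Cyp4a10 had 91.9, 66.2, 70.9, 319 and 283 CPM in wt 4 h livers, against 79.3, 53.3, 31.8, 34.9 and 68.6 CPM in wt 2 h livers, with the same pair high. The changes were 2.21 (SE 0.90) for Cyp4a14 and 1.63 (SE 0.55) for Cyp4a10. Cyp4a31 was highest in replicate 5 of each group, at 8.81 CPM in wt 4 h livers and 2.56 CPM in wt 2 h livers, and its change of 1.18 (SE 0.45) was 0.61 without the wt 4 h library. These genes lie close together and resemble each other in sequence, so reads could be shared between them. Cpt1a, the entry step of fatty acids into mitochondria, had a change of -0.07 (SE 0.12). Angptl4, a secreted lipase inhibitor and PPAR target, had a change of 0.37 (SE 0.21) in wt and of 0.38 in tg livers.

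Nuclear genes of oxidative phosphorylation and genes of ribosomal proteins showed the most uniform direction. All 37 fitted genes of oxidative phosphorylation were higher in the mean of wt 4 h livers, by 0.08 to 0.30, with a median of 0.22. Of them 16, with 0 in the other direction, had an unadjusted p under 0.05, against 3.09% and 2.89% of all genes. Atp5c1, the gamma subunit of ATP synthase, had 285, 290, 233, 252 and 264 CPM in wt 4 h livers, against 211, 203, 245, 227 and 207 CPM in wt 2 h livers. Cox5a of cytochrome oxidase had 170, 172, 171, 154 and 164 CPM in wt 4 h livers, against 118, 129, 177, 149 and 117 CPM in wt 2 h livers. For Atp5c1, wt 2 h replicate 3 lay inside the wt 4 h range, and for Cox5a it lay above every wt 4 h liver. Uqcrb of complex III and cytochrome c (Cycs) were higher by 0.30 (SE 0.11) and 0.26 (SE 0.11). All 48 ribosomal protein genes were higher too, by 0.05 to 0.25, with a median of 0.18. Among these, 5 members had an unadjusted p under 0.05, against 3.09% of all genes higher at that p. The smallest p was that of Rpl15, at 210 ± 9.98 CPM in wt 4 h livers and 176 ± 22.2 CPM in wt 2 h livers (SD, n = 5 each). In tg livers the same 37 and 48 genes were all higher at 4 h as well, with medians of 0.11 and 0.12. Of them, 0 and 2 were higher at 4 h in tg livers at an unadjusted p under 0.05, as were 618 (4.95%) of all genes. No member of either list had an unadjusted p under 0.05 for the wt minus tg difference. Such genes move together from library to library, so their uniform sign is not a count of independent observations.

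**Figure D2:**
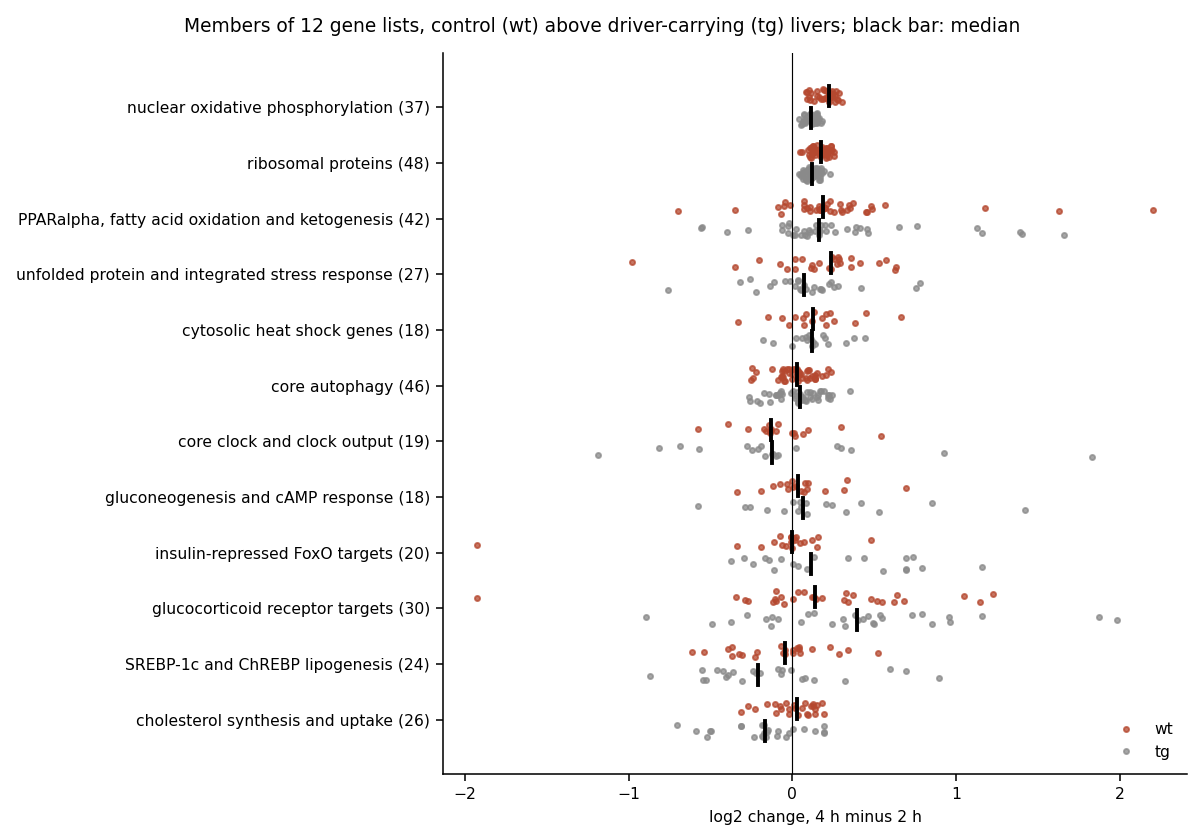
Log2 change, 4 h minus 2 h (horizontal axis), of each fitted member of 12 gene lists, with wt livers in red above tg livers in grey, a black bar at each median and the number of members in parentheses. The oxidative phosphorylation and ribosomal protein genes lie on the positive side in both genotypes, while the other lists straddle 0.

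The change went with transcript length. Over 12493 genes, the change in wt livers and the length of the longest annotated transcript had a Spearman rho of -0.352, against -0.0712 in tg livers. These are correlations across genes, which are not independent replicates. With genes split by length into 4 bins of about equal size, the median change in wt livers was 0.09 in the shortest bin, with transcripts up to 2220 bases, 0.01 and -0.03 in the middle bins and -0.07 in the longest. Oxidative phosphorylation and ribosomal protein transcripts are short. With each library corrected for length and GC content, a check added after seeing the data, the rho was -0.0263 and the medians were 0.09 for oxidative phosphorylation (35 of 37 positive, 6 at an unadjusted p under 0.05) and 0.06 for ribosomal proteins (41 of 48 positive, 3 at that p). The unfolded protein response kept a median of 0.19, with 21 of 27 positive and 10 higher and 2 lower at that p, and the PPARalpha list kept 0.16, with 36 of 42 positive and 5 at that p. Over all genes, 592 of 12493 had an unadjusted p under 0.05 in the corrected fit, in either direction. Bcl6 was at -1.92, Hspa5 at 0.41 and Eci1 at 0.22 after the correction. Uqcrb went from 0.30 to 0.080 and Fabp2 from 0.35 to 0.18. The part of length or RNA condition in the differences was not tested beyond these values.

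Single genes of the fasting response were read from a panel of 38 fasting, clock and stress genes. Of these, 30 (78.9%) had an absolute log2 change under 0.5, against 96.5% of all genes, 4 (10.5%) had an unadjusted p under 0.05, against 5.98% of all genes, and the median was 0.01. Pck1, which commits carbon to glucose synthesis, had 2961, 2219, 1916, 2679 and 3395 CPM in wt 4 h livers, against 1687, 2553, 2904, 3620 and 2217 CPM in wt 2 h livers. These ranges overlap almost completely. G6pc, the last step of glucose release, had a change of -0.19 (SE 0.38), Ppargc1a, a coactivator of the fasting response, 0.09 (SE 0.22), and Tat, a glucocorticoid-induced aminotransferase, -0.12 (SE 0.28). The sign of all 4 turned in at least 1 alternative fit. Igfbp1, an insulin-repressed FoxO target, had 86.2, 14.3, 11.7, 10.8 and 19.9 CPM in wt 4 h livers, against 16.4, 34.2, 9.93, 24.5 and 18 CPM in wt 2 h livers. A single wt 4 h liver set its change of 0.48 (SE 0.53), which was -0.54 without replicate 1. Medians were 0.04 for 18 genes of gluconeogenesis and cAMP response, with 0 members at an unadjusted p under 0.05, and -0.0030 for 20 FoxO targets, with 1 lower, which was Bcl6.

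Among the 24 lipogenic genes fitted, 1 was lower in wt 4 h livers without overlap, against 0.400% of all genes. Mid1ip1, an activator of acetyl-CoA carboxylase and an insulin-induced gene, had 48.3, 37.5, 45.7, 44.4 and 29.5 CPM in wt 4 h livers, against 62.6, 71.6, 57.9, 54.9 and 51.6 CPM in wt 2 h livers. Its change was -0.54 (SE 0.20) in wt and -0.55 in tg livers. Srebf1, which encodes SREBP-1, had a change of -0.40 (SE 0.23), and fatty acid synthase (Fasn) one of -0.61 (SE 0.42), with 775, 411, 334, 619 and 183 CPM in wt 4 h livers, against 1048, 988, 274, 501 and 737 CPM in wt 2 h livers. Both overlapped. The median of the lipogenic genes was -0.04, and it was -0.29 without wt 4 h replicate 1 and 0.066 without wt 4 h replicate 5. Insig2, which holds SREBP in the endoplasmic reticulum and rises in fasting liver, was higher by 0.52 (SE 0.27) with overlapping groups. Cyp7a1, the rate-limiting enzyme of bile acid synthesis, averaged 105 ± 49.8 CPM in wt 4 h livers and 198 ± 77.6 CPM in wt 2 h livers (SD, n = 5 each), with a change of -0.91 (SE 0.54).

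Clock genes were compared at 1 clock time. Per2 had 22.2, 19.5, 24.4, 19.4 and 14.1 CPM in wt 4 h livers, against 28.2, 31.0, 27.6, 22.0 and 22.0 CPM in wt 2 h livers. The groups overlapped by 2 wt 4 h livers at or above the lowest wt 2 h values, and the change was -0.39 (SE 0.16) in wt and -0.57 in tg livers. Per3 was lower by -0.58 (SE 0.25) in wt and by -1.19 in tg livers. These were the 2 of 19 clock genes at an unadjusted p under 0.05, against 2.89% of all genes lower at that p. The list median was -0.13 in wt and -0.12 in tg livers. Without wt 4 h replicate 5 the wt median was -0.038, and without wt 2 h replicate 3 it was -0.059. Nr1d1, a clock repressor, averaged 80.0 ± 20.0 CPM in wt 4 h livers and 79.2 ± 25.3 CPM in wt 2 h livers (SD, n = 5 each). For Arntl, the gene of the clock activator BMAL1, the change was 0.30 (SE 0.34) in wt and 1.83 in tg livers, at levels of about 1 CPM, and the difference had an unadjusted p of 0.0056 and an adjusted p of 0.64. For its output gene Dbp the change was -0.14 (SE 0.17) in wt and -0.69 in tg livers, with an unadjusted p of 0.043 for the difference.

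Core autophagy genes, which build and close the vesicle that delivers cell contents to lysosomes, had a median change of 0.03 over 46 members. Among them 2 were higher and 4 lower at an unadjusted p under 0.05, against 3.09% and 2.89% of all genes. Ulk1, the kinase that starts the process, had 120, 105, 96.3, 98.9 and 106 CPM in wt 4 h livers, against 118, 148, 100, 131 and 126 CPM in wt 2 h livers, a change of -0.24 (SE 0.10) with overlap. Stx17, which lets the vesicle fuse with the lysosome, had a change of -0.24 (SE 0.09) in wt and -0.26 in tg livers, and Atg3, an enzyme of LC3 lipidation, one of 0.22 (SE 0.08). With library totals as the only scaling the list median was -0.03.

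Markers of cells other than hepatocytes gave overlapping ranges. Kupffer cell and macrophage markers summed to between 341 and 505 CPM in wt 4 h livers and between 367 and 633 CPM in wt 2 h livers, and 0 of 14 had an unadjusted p under 0.05. Markers of sinusoidal endothelium summed to 302 to 460 CPM in wt 4 h livers and 348 to 459 CPM in wt 2 h livers, with 2 of 14 positive and a median of -0.08, which was -0.21 without wt 4 h replicate 1 and -0.018 without wt 4 h replicate 4. Neutrophil markers were near the limit of detection, summing to at most 7.91 CPM in wt 4 h livers and 13.0 CPM in wt 2 h livers. In whole tissue, fewer cells of a type and less RNA per cell cannot be told apart.

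Between livers of 1 group, some genes differed far more than between the groups. The spread of a gene was measured as the SD of log2 CPM about the 2 group means, over the 8748 genes that averaged 5 CPM or more in wt livers. Its median was 0.18 in wt and 0.17 in tg livers. In wt livers 35 genes (0.400%) had an SD over 1, where single livers typically lie 2-fold from their group's mean, and in tg livers 40 genes (0.457%) did. Of the 35, 15 also had an SD over 1 in tg livers, 34 were above the tg median, and their median tg SD was 0.930. The 35 were chosen by their spread in wt livers, so only the tg values are independent of that choice. Over all 8748 genes, spread in wt and in tg livers had a Spearman rho of 0.602 across genes. For 24 of the 35 the mean was under 20 CPM, where counting error is larger, and 20 of the 35 had an SD of 1 or less when some single library was left out. Of the 35, 1 had an unadjusted p under 0.05 between wt 4 h and wt 2 h livers, against 5.98% of all genes. A large spread within groups raises p-values, and the 35 were chosen for it. That share therefore does not show whether they change with duration.

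**Figure D3:**
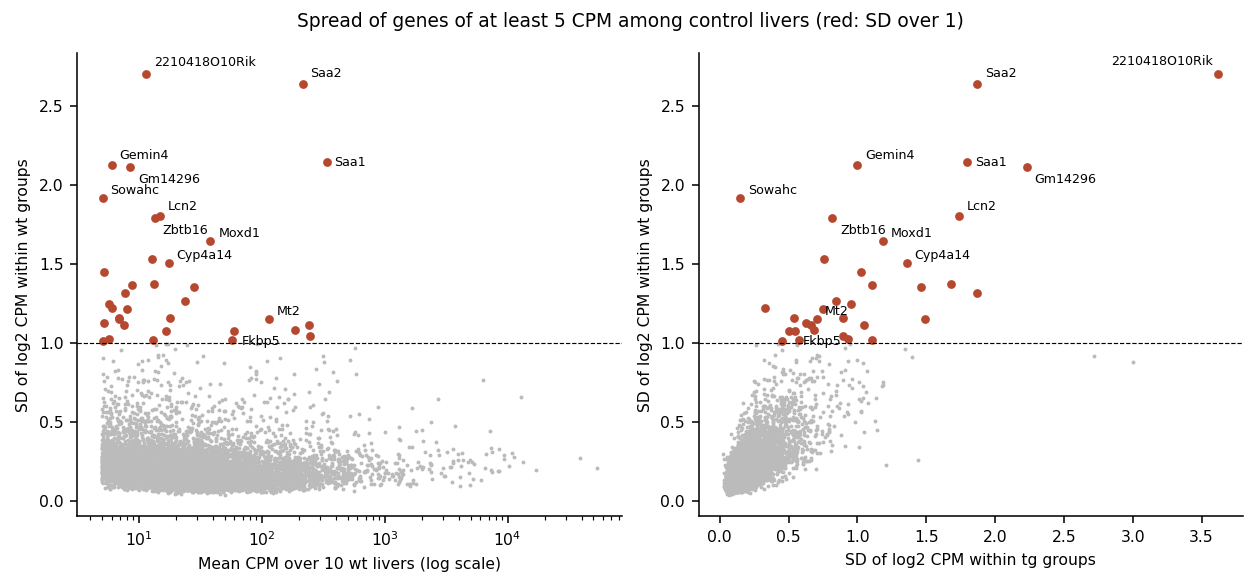
SD of log2 CPM within wt groups (vertical axes) of 8748 genes against the mean CPM over 10 wt livers on a log scale (left) and against the SD within tg groups (right), with the 35 genes above an SD of 1 (dashed line) in red. Saa2, Saa1 and Lcn2 vary strongly in both genotypes, whereas Sowahc is high in wt and low in tg livers.

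Acute phase genes, which hepatocytes switch on in response to interleukin-6 and related cytokines, were among these variable genes. Saa2, a serum amyloid A gene (chromosome 7, 46751790 to 46754313), had 9.42, 10.8, 48.0, 370 and 16.0 CPM in wt 4 h livers, against 16.9, 97.3, 1564, 10.8 and 13.3 CPM in wt 2 h livers. Its neighbour and near-copy Saa1 (chromosome 7, 46740497 to 46742980, minus strand) had 24.6, 39.5, 217, 696 and 63.8 CPM in wt 4 h livers, against 31.1, 314, 1837, 66.8 and 79.6 CPM in wt 2 h livers. Replicate 4 was highest in the wt 4 h group and replicate 3 in the wt 2 h group for both, and reads shared between the copies could add to their likeness. Lcn2, an iron-siderophore binding protein also made by neutrophils, had 2.27, 2.81, 20.7, 35.5 and 4.29 CPM in wt 4 h livers, against 2.85, 41.2, 30.6, 3.66 and 3.99 CPM in wt 2 h livers. The livers high in Saa2 were high in Lcn2 too. SDs in wt and tg livers were 2.64 and 1.87 for Saa2, 2.15 and 1.80 for Saa1, 1.80 and 1.74 for Lcn2, 1.26 and 0.84 for Orm2, an orosomucoid gene, and 1.05 and 0.90 for Fgl1, a secreted fibrinogen-like protein. With the group means removed, Saa2 went with Lcn2 (r 0.867, permutation p = 0.00133, rho 0.782, permutation p = 0.0102), with Orm2 (r 0.872, permutation p = 0.00102, rho 0.770, permutation p = 0.0132) and with Fgl1 (r 0.827, permutation p = 0.00170, rho 0.721, permutation p = 0.0222), and over 26 pairs the adjusted p-values were 0.00576 and 0.0378 for Lcn2, 0.00530 and 0.0381 for Orm2, and 0.00631 and 0.0530 for Fgl1. Without the 2 livers farthest from the median of Saa2, r was 0.956, 0.833 and 0.784. Saa2, Lcn2, Orm2 and Fgl1 were picked among the variable genes of these same livers. All of them lie at the high end of the first principal component described below, so the p-values do not account for that choice. Over all genes, larger absolute values of r with Saa2 occurred, such as 0.907 for Ggt6 and -0.923 for Prdm2, chosen as extremes and so untested. Among the 25 acute phase genes above the CPM floor, 11 had an SD over 0.5, against 321 of 8748 over all genes. Crp, the member with the smallest p between the groups, varied little, at 303 ± 37.0 CPM in wt 4 h livers and 256 ± 14.3 CPM in wt 2 h livers (SD, n = 5 each).

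Glucocorticoid receptor targets varied as well, with a median SD of 0.55 over 24 genes and 14 of them (58.3%) over 0.5, against 3.67% of all genes. The list is not separate from the other variable genes. Its most variable member was Lcn2, described above with Saa2, and it also holds Bcl6 and Mt2. Zbtb16, a transcription factor strongly induced by glucocorticoids (chromosome 9, 48654297 to 48836222, minus strand), had 30.3, 3.51, 2.49, 16.4 and 29.7 CPM in wt 4 h livers, against 12.5, 2.28, 1.22, 32.4 and 3.84 CPM in wt 2 h livers. Fkbp5, a cochaperone of the receptor (chromosome 17, 28399094 to 28517527, minus strand), had 90.2, 26.7, 24.0, 31.6 and 143 CPM in wt 4 h livers, against 43.6, 69.0, 18.9, 114 and 34.0 CPM in wt 2 h livers. Replicates 1 and 5 at 4 h and replicate 4 at 2 h were high for both. Lpin1, a phosphatidate phosphatase that also responds to fasting signals, ranged from 62.3 to 440 CPM in wt 4 h livers and from 66.2 to 580 CPM in wt 2 h livers. With the group means removed, Fkbp5 went with Lpin1 (r 0.883, permutation p = 0.000450, rho 0.915, permutation p = 0.000550) and with Zbtb16 (r 0.787, permutation p = 0.0111, rho 0.879, permutation p = 0.00185). The values adjusted over 26 pairs were 0.00292 and 0.00659 for Lpin1 and 0.0320 and 0.0120 for Zbtb16, and without the 2 farthest livers r was 0.874 and 0.646. Ddit4 had an r of 0.660 (permutation p = 0.0351, adjusted p = 0.0761) and a rho of 0.770 (permutation p = 0.0129, adjusted p = 0.0381) with Fkbp5. For Tsc22d3, Klf9 and Per1, r with Fkbp5 was 0.616, 0.328 and -0.164 (adjusted permutation p = 0.101, 0.428 and 0.669). Their rho values were 0.539, 0.309 and -0.212 (adjusted permutation p = 0.185, 0.501 and 0.606). The gene most like Fkbp5 over all genes was Plin5, a lipid droplet protein, with r 0.99 over the 10 livers, chosen as the highest and so untested. Fkbp5 and Saa2 had an r of -0.541 (permutation p = 0.107, adjusted p = 0.164) and a rho of -0.539 (permutation p = 0.113, adjusted p = 0.185).

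Cish, Myc and Foxq1 made another group. Myc, the growth-related transcription factor, had 3.37, 4.38, 15.7, 4.51 and 26.4 CPM in wt 4 h livers, against 2.75, 2.87, 11.4, 1.38 and 14.6 CPM in wt 2 h livers. Foxq1, a forkhead factor, had 11.5, 13.2, 59.0, 14.2 and 66.0 CPM in wt 4 h livers, against 6.22, 9.78, 45.9, 6.98 and 46.8 CPM in wt 2 h livers. Replicates 3 and 5 were the high livers of both groups. No label says that the numbers pair livers across groups, and over all genes the deviations of the 2 livers numbered 3 correlated at 0.59 and of those numbered 5 at 0.15, so whether such livers share a source was not tested. Gadd45g, a stress and growth arrest gene, was highest in the same 4 livers, at 24.2 and 48.1 CPM in wt 4 h livers and at 13.0 and 14.5 CPM in wt 2 h livers. Cish had 1.90, 21.4, 37.5, 9.26 and 28.6 CPM in wt 4 h livers, against 4.89, 3.35, 10.5, 2.97 and 11.7 CPM in wt 2 h livers. It went with Myc at r 0.771 (permutation p = 0.00883, adjusted p = 0.0287) and rho 0.806 (permutation p = 0.00666, adjusted p = 0.0346), and r was 0.854 without the 2 farthest livers. With Foxq1, r was 0.747 (permutation p = 0.0131, adjusted p = 0.0342) and rho 0.685 (permutation p = 0.0338, adjusted p = 0.0732). With Socs2, r was 0.329 (permutation p = 0.362, adjusted p = 0.428). In wt 4 h replicate 2 Cish was at 21.4 CPM, while Myc was at 4.38 and Foxq1 at 13.2 CPM. The SD of Cish was 1.37, and 0.890 without wt 4 h replicate 1. SDs in tg livers were 1.68 for Cish, 1.11 for Myc and 1.46 for Foxq1.

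Male-biased genes, which pulses of growth hormone maintain in male mouse liver, had a median SD of 0.45 over 22 genes. Of these, 9 (40.9%) were over 0.5, against 3.67% of all genes. The spread was not particular to them. Of the female-biased genes, 4 were above the CPM floor, with a median SD of 0.86 and all 4 over 0.5. Moxd1, a monooxygenase-like gene whose promoter is printed above, had 6.04, 40.3, 72.9, 21.6 and 4.39 CPM in wt 4 h livers, against 6.59, 61.9, 57.2, 93.2 and 19 CPM in wt 2 h livers. Selenbp2, a selenium binding protein, ranged from 211 to 988 CPM in wt 4 h livers and from 258 to 1405 CPM in wt 2 h livers. Cyp2c40, a cytochrome P450 gene that is not in the male-biased list, also varied. It ranged from 1.69 to 17.6 CPM in wt 4 h livers and from 1.58 to 17.8 CPM in wt 2 h livers. Selenbp2 and Moxd1 had an r of 0.424 (permutation p = 0.219, adjusted p = 0.285) and a rho of 0.515 (permutation p = 0.133, adjusted p = 0.204).

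Metal and lipid genes varied in their own patterns. Metallothioneins bind zinc and copper and respond to glucocorticoids as well as metals. Mt2 had 38.5, 179, 134, 383 and 68.4 CPM in wt 4 h livers, against 124, 113, 37.1, 43.9 and 24.9 CPM in wt 2 h livers, with a change of 1.23 (SE 0.59) and an SD of 1.15. Without wt 4 h replicate 4 the change was 0.62, and with the length and GC correction it was 0.91. It went with Mt1 (r 0.960, permutation p = 2e-05, adjusted p = 0.00052, rho 0.939, permutation p = 0.00016, adjusted p = 0.00416), and these paralogs could share reads. The 22 lipogenic genes above the floor had a median SD of 0.60, with 12 (54.5%) over 0.5, against 3.67% of all genes. Elovl6, a fatty acid elongase, had 345, 117, 68.2, 106 and 54.9 CPM in wt 4 h livers, against 216, 227, 65.9, 95.4 and 122 CPM in wt 2 h livers. Scd1, the delta-9 desaturase and one of the most abundant of these mRNAs, had 21398, 11885, 7914, 17930 and 6630 CPM in wt 4 h livers, against 17787, 15935, 6771, 9550 and 14002 CPM in wt 2 h livers. Replicates 3 and 5 at 4 h and replicate 3 at 2 h were the lowest for both.

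**Figure D4:**
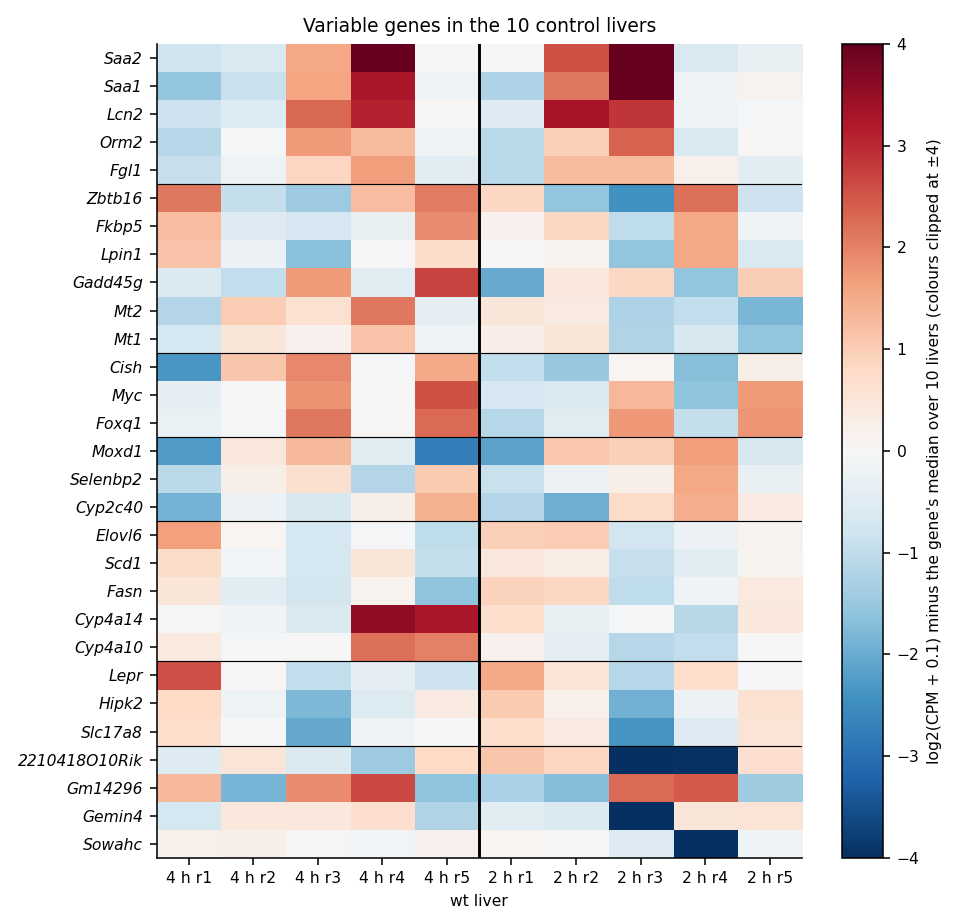
Levels of 29 genes (rows) in the 10 wt livers (columns, wt 4 h left of the black line, wt 2 h right), as log2(CPM + 0.1) minus each gene's median over the 10 livers, with colours clipped at ±4. Acute phase genes are high in wt 4 h replicates 3 and 4 and wt 2 h replicates 2 and 3, with Saa2 and Saa1 highest in wt 2 h replicate 3. Cyp4a genes are high in wt 4 h replicates 4 and 5, and Gemin4 and Sowahc are each at 0 in a single wt 2 h liver.

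Several variable genes had libraries at or near 0 counts. Sowahc (chromosome 10, 59221953 to 59226434), an ankyrin repeat gene, was listed at 0 in wt 2 h replicate 4 and lay between 3.91 and 6.61 CPM in the other 9 wt livers. Its SD of 1.92 was 0.20 without that library and 0.15 in tg livers. Gemin4, a component of the complex that assembles spliceosomal RNPs (chromosome 11, 76210571 to 76217664), was at 0 in wt 2 h replicate 3 and between 2.69 and 10.0 CPM elsewhere, and its SD of 2.13 was 0.73 without that library. The counts derive from a tool chain that includes Salmon, in which an exact 0 can be an estimate. The zinc finger gene 2210418O10Rik on chromosome 2, first in the ranking with an SD of 2.70, lay between 3.92 and 19 CPM in wt 4 h livers. In wt 2 h livers it was at 0 in replicate 3, at 0.603 CPM in replicate 4 and between 17.5 and 23.7 CPM in the other 3. Gm14296 (chromosome 2, 176892509 to 176927809, minus strand) had livers at 8.65 to 21.8 CPM and others at 0.867 to 1.33 CPM in both groups. The high ones were replicates 1, 3 and 4 at 4 h and replicates 3 and 4 at 2 h. Both genes varied as strongly in tg livers, with SDs of 3.62 and 2.23, and both belong to a chromosome 2 cluster of similar genes between which reads could be split.

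The first principal component of the deviations from the group means held 42.4% of their variance, the second 13.8%. Scores on the first were lowest in wt 4 h replicate 1 (-22.9) and wt 2 h replicate 1 (-16.0) and highest in wt 4 h replicate 3 (18.7) and wt 2 h replicate 3 (26.6). Saa2, Saa1, Moxd1, Lcn2 and Orm2 led its high end, and 2210418O10Rik, Zbtb16, Slc17a8, Lepr and Hipk2, among others, were at its low end. The low end also held Lyve1, an endothelial marker, and Hgf, a stellate cell marker. Averaged over the stellate cell markers, the log2 deviation was 0.57 and 0.47 in replicates 1 at 4 h and 2 h. It was -0.45 and -0.46 in replicates 3, but also -0.49 in wt 4 h replicate 4, whose score was 4.27. The part of cell content in the component was not tested. The loadings had a Spearman rho of -0.558 with transcript length over 8748 genes. Library by library, the rho of the deviations with length ran from 0.569 in wt 2 h replicate 1 to -0.575 in wt 2 h replicate 3. Lepr, the leptin receptor, which liver makes mainly as a short and soluble form and raises in fasting, had 21.2, 3.63, 1.70, 2.63 and 1.90 CPM in wt 4 h livers, against 10.2, 5, 1.53, 5.77 and 3.35 CPM in wt 2 h livers. Its SD of 1.25 was 0.82 without wt 4 h replicate 1. Hipk2, a nuclear kinase, had 26.8, 13.3, 4.38, 10.5 and 19.8 CPM in wt 4 h livers, against 32.1, 17.9, 4.00, 13.0 and 23.6 CPM in wt 2 h livers. Slc17a8, a vesicular glutamate transporter, ranged from 4.29 to 29.3 CPM in wt 4 h livers and from 3.45 to 29.5 CPM in wt 2 h livers. Hipk2 and Slc17a8 were lowest in replicate 3 of each group, the livers at the high end of the component. With the length and GC correction, 31 of the 35 variable genes kept an SD over 1, and the component held 36.4% of the variance.

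**Figure D5:**
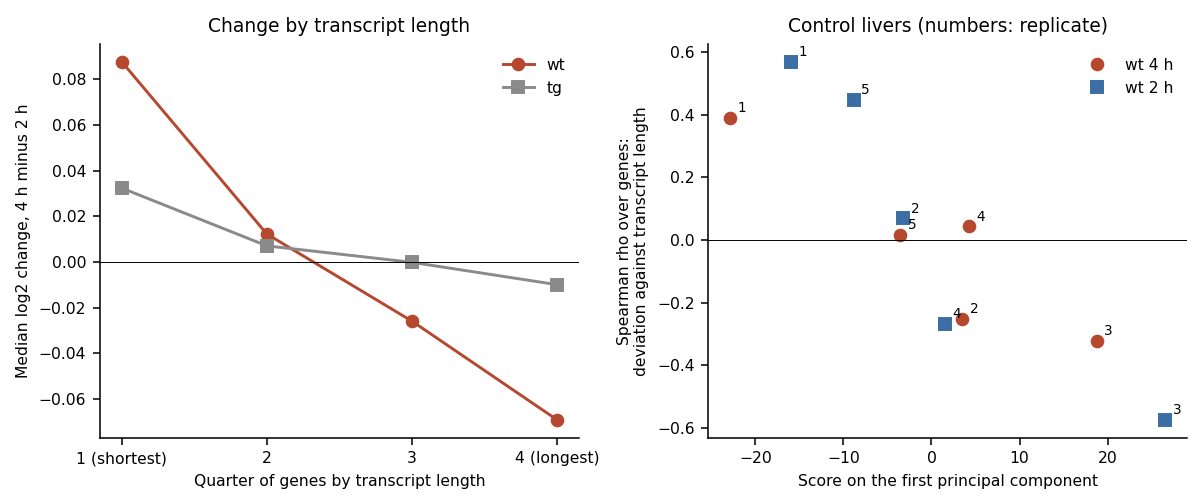
Left, the median log2 change, 4 h minus 2 h, in 4 bins of genes by transcript length, for wt (red) and tg livers (grey), from 0.09 to -0.07 in wt. Right, for each wt liver, the score on the first principal component against the Spearman rho over genes between its deviations and transcript length, with wt 4 h as red circles, wt 2 h as blue squares and replicate numbers beside them; wt 2 h replicates 1 and 3 lie near the opposite ends.

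At the other end of the ranking, housekeeping genes differed between livers by a few percent. Tm9sf1, a membrane protein of the secretory and autophagy pathways, had the smallest SD of all, 0.03 in wt and 0.07 in tg livers. It had 50.8, 50.7, 49.6, 52.7 and 51.2 CPM in wt 4 h livers, against 48.2, 50.4, 49.7, 50.1 and 51.4 CPM in wt 2 h livers. The next were Emc2 of the membrane protein insertase, the histone deacetylase Hdac1 and Tmem127, each with an SD of 0.04 in wt livers. In tg livers their SDs were 0.09, 0.08 and 0.05. The ranking used the wt values, so only the tg values are independent of it. Emc2, Hdac1 and Tmem127 averaged 22.2, 19.8 and 46.2 CPM over the 10 wt livers.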

How the data were processed

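Whole livers were profiled by stranded poly-A RNA sequencing from 1 µg of RNA, per the labels' protocols. The deposited values are whole-number read counts per gene, not normalized. Salmon 1.4.0, STAR, DESeq2 1.30.0 and GRCm38.p6 appear in the submitters' processing notes with no role, and the counting step is not given there. The authors' tables of tg against wt were not used. Genes blank in the 4 h columns, 257 of 14576, were left out.

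From these counts, edgeR 4.0.16 (R 4.3.3) fitted 19 libraries with 1 mean per group, TMM scaling, a minimum count of 10 (total 15) and the robust quasi-likelihood test. P-values were adjusted by the Benjamini-Hochberg method over all 12493 genes fitted, at a threshold of 0.05. The wt minus tg difference was tested as an interaction. Levels are CPM on TMM-scaled library sizes. Spread was computed from log2 CPM with a prior count of 2. Pairs of genes were tested with 100000 permutations, two-sided. Alternatives were DESeq2 1.42.0, limma-voom (limma 3.58.1), other scalings and filters, a replicate block, the wt libraries alone and leaving out each library. The further number in the sample titles was also fitted as a covariate. The fit was tested on simulated data. Over 20 pairs of wt libraries from the same group, chi-square per degree of freedom was 32.6 or more, so none was counted as a repeat.

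Gene positions and transcript lengths are from GENCODE M21, and promoters from RefSeq (GRCm38.p6). On both strands 13 motifs were searched in 27025 promoters. Besides the 2 described with the promoters, they were TTCNNNGAA, which includes every STAT palindrome (9.55% of promoters), the glucocorticoid response element in a strict form (0.0555%) and a loose form (0.537%), TTATGCAA (0.888%), the NF-kB element in a strict form (0.466%) and a loose form (1.89%), TGCACAC (5.02%), TGCNCNC (53.6%), TCACGTGA (1.12%), the CLEAR element (0.37%) and TGATGNAAT (1.08%).

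Named genes are those with the smallest p-values overall and in each list, the most and least variable, a panel of fasting, clock and stress genes, and the ends of the principal components. Other members of lists, such as Pdia6, Sdf2l1, Xbp1, Dbp, Arntl, Per3, Cycs and Cox5a, and the promoters shown, were chosen after their values were seen. The comparison and all lists were chosen with earlier results of these data known. Xist was not analysed here.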

Additional observations from a re-analysis of the deposited data

Results flagged for a closer look

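In 14 of 168 groups of 5 livers tested, the highest or lowest value stood apart from the others by Dixon's criterion, and chance gives about 1 in 20. The genes tested are those named in the text, many of them chosen for their spread, so the number is not read against chance. Of these, 4 were in wt 2 h replicate 3 and 3 in wt 4 h replicate 1.

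Serum amyloid genes stood apart in both groups. Saa2 reached 370 CPM in wt 4 h replicate 4, where the next liver had 48.0 CPM, and 1564 CPM in wt 2 h replicate 3, where the next had 97.3 CPM. Saa1 reached 696 CPM and 1837 CPM in the same livers, where the next had 217 and 314 CPM. Wt 4 h replicate 1 was high for Igfbp1 at 86.2 CPM (next 19.9), for Lepr at 21.2 CPM (next 3.63) and for Elovl6 at 345 CPM (next 117). The same library had the lowest share of mitochondrially encoded reads, 7.83%, and the part of that in these values was not tested.

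Cyp4a31 was highest in replicate 5 of both groups, at 8.81 CPM in wt 4 h livers (next 3.41) and 2.56 CPM in wt 2 h livers (next 1.62). In wt 2 h livers, Cpt1a was low in replicate 3 at 344 CPM (next 517) and Dbp was high there at 278 CPM (next 176). Also in wt 2 h livers, Nr1d1 was low in replicate 2 at 34.8 CPM (next 82.7). In replicate 4 of that group Selenbp2 was high at 1405 CPM (next 562) and Kyat3 was low at 113 CPM (next 125).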

How the results depend on the processing

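The count of 0 genes called between wt 4 h and wt 2 h livers was 1 (Bcl6) with DESeq2 and with sample weights in limma-voom, and ranged from 0 to 1 when single libraries were left out, with Bcl6 called without wt 4 h replicate 1. The count for the wt minus tg difference was 6 with DESeq2 (Lgr5, Carmil1, Osbpl11, Ifnar1, Id1 and Rnf152) and ranged from 0 to 3 when single libraries were left out, with 3 without wt 4 h replicate 1. All other settings run gave 0. Genes at an unadjusted p under 0.05 numbered 441 to 1559 over the left-out libraries, 1559 without wt 2 h replicate 3, against 747, and 2060 with sample weights. With the replicate number as a block, 0 genes were called, with 688 at that p in 19 libraries and 1044 in the wt libraries alone, and 25 variable genes were found. Same-numbered wt livers had deviations correlated at 0.44, -0.25, 0.59, -0.08 and 0.15 for replicates 1 to 5. Replicates 1 and 3 at 4 h correlated best with their own number at 2 h, and the other 3 did not. As not every pair was over 0.1 and no label pairs them, the numbers were not taken as pairs, which does not show that same-numbered livers are independent. Variable genes numbered 64 with a floor of 1 CPM, 11 with a floor of 20 CPM and 28 to 41 over the left-out libraries.

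With total counts as the only scaling, the median log2 change of core autophagy was -0.029 and the median log2 change of lysosome genes -0.036, and Pck1 and Nr1d1 had changes of -0.023 and -0.052. A minimum count of 50 gave -0.35 for T and NK cell markers (0.13 otherwise) and -0.0078 for Nr1d1, and the wt libraries alone gave -0.0022 for Nr1d1. G6pc was 0.038 with the replicate block in wt libraries and 0.042 with limma-voom. Sample weights gave -0.40 for Igfbp1 and 0.039 for Dbp. Leaving out single libraries, neutrophil markers ranged from -1.67 to 0.64 and B and plasma cell markers from -0.65 to -0.10. On the same terms, changes ranged from -0.10 to 0.17 for Pck1, -0.44 to 0.12 for G6pc, -0.062 to 0.18 for Ppargc1a, -0.54 to 0.74 for Igfbp1, -0.18 to 0.10 for Nr1d1, -0.34 to 0.027 for Tat and up to 0.053 for Dbp. Ribosomal protein genes ranged from 0.11 to 0.26, the gluconeogenesis list from -0.019 to 0.076, the FoxO list from -0.10 to 0.032, Srebf1 from -0.56 to -0.25, Angptl4 from 0.21 to 0.55, Xbp1 from 0.16 to 0.41 and Arntl from 0.17 to 0.45. The cause was not tested. The length and GC correction, the spread with single libraries left out and the share of the first component were added after seeing the data.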
